A study of Mus musculus with 16 samples.

Results

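The genes described here encode 5 enzymes of folate-dependent one-carbon metabolism, measured by RNA-seq in ventricles of mouse embryos at E11.5. They were chosen by name, with their responses to the loss of Atf4 already known. Aldh1l2, Shmt2 and Mthfd1l encode mitochondrial enzymes, and Shmt1 and Atic encode cytosolic ones. These are 5 of the 5921 genes in the rows used, which cover chromosomes 1 and 10 and part of 11, and all 5 passed the filter on low values that left 2620 genes for testing. Because the choice used the comparison of knockout with control in either line, the changes of these 5 genes are given as a description, with no test.

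The study had 16 libraries in 4 groups of 4, and its question was what ATF4 does in heart development. The conditional knockout (cKO) of the first line lost exons 2 to 3 of Atf4 (ATF4 exon2-3 cKO, from the allele Atf4 fl(e2/3)), and that of the second lost exon 2 alone (ATF4 exon2 cKO, from Atf4 fl(e2)). In both, Xmlc2-Cre removed the floxed exons in cardiomyocytes, so that the other cells of the ventricle keep the gene. Each line had its own controls. The labels give all 16 samples, cKO included, the genotype C57BL/6 WT, and do not state whether the controls carried a floxed allele or Cre. No drug or other treatment was given. The exon 2-3 line makes up batch 1 and the exon 2 line batch 2, which means that an effect of batch and an effect of line cannot be told apart. Each cKO was compared with controls of the same batch. Each group is labelled as biological replicates, with tissue dissected per embryo. Atf4 itself was not analysed here, so the directions below rest on the labels.

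Folate carries one-carbon units that are used to build purines and thymidylate and to recycle methionine. In mitochondria, SHMT2 takes such a unit from serine, yielding glycine, and after oxidation MTHFD1L releases it as formate, which leaves for the cytosol. ALDH1L2, also in mitochondria, instead oxidises the formyl group of formyl-tetrahydrofolate to carbon dioxide and forms NADPH. In the cytosol, SHMT1 interconverts serine and glycine, and ATIC uses formyl-tetrahydrofolate in the last steps of purine synthesis. ATF4, a transcription factor of the response to amino acid shortage, is known to raise transcription of genes for serine synthesis and mitochondrial one-carbon metabolism.

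On GRCm38, the 3 mitochondrial genes all lie on chromosome 10, Aldh1l2 at chr10:83487447-83534146 (minus strand), Shmt2 at chr10:127517123-127522444 (minus strand) and Mthfd1l at chr10:3972892-4167081 (plus strand). Shmt1 lies at chr11:60788897-60811265 (minus strand) and Atic at chr1:71557156-71579403 (plus strand). GENCODE M21, on the same build, holds 7 transcripts of Aldh1l2, 7 of Shmt2, 4 of Mthfd1l, 11 of Shmt1 and 6 of Atic, and the deposited values are 1 per gene. RefSeq promoter sequence, from 250 bases before a start to 50 after it, was matched for 4 of the 5 genes, all but Aldh1l2. Because Aldh1l2 and Shmt2 were higher in the exon 2 cKO and Mthfd1l, Shmt1 and Atic overlapped their controls, the bases just before the starts are shown, 5′ to 3′ on the strand of the gene, with motif matches in capitals.
Shmt2, chr10:127522445-127522594: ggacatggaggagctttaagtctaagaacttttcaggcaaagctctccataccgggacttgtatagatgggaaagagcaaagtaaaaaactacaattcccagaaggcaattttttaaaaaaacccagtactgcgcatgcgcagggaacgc
Mthfd1l, chr10:3973045-3973074: tggcccccgccctgttaaCGTCAcggccac
Shmt1, chr11:60811266-60811415: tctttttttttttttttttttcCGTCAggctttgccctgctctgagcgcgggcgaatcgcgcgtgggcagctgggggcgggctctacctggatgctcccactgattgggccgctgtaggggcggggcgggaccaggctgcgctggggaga
Atic, chr1:71557056-71557155: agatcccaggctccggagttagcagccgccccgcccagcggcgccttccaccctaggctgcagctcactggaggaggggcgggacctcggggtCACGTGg

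The motifs were searched on both strands of the 300 bases. The C/EBP-ATF response element, the composite site through which ATF4 acts (TGATGNAA), had no match in the 4 promoters and a match in 3.97% of 32851 RefSeq promoters of this length. The full cAMP response element (TGACGTCA) also had no match in the 4, against 1.79% of all promoters. Its half-site (TGACG, contained in the full element) was matched on the strand opposite to the gene, and so reads CGTCA above, before Mthfd1l, 12 to 8 bases upstream, and before Shmt1, 128 to 124 bases upstream, against 20.8% of all promoters. The E-box CACGTG was matched just before the RefSeq start of Atic, against 7.15% of all promoters. The Atic stretch shown overlaps an exon of Atic itself in GENCODE M21, and the other 3 stretches overlap none. The promoter of Shmt2 had the lowest GC content of the 4, 42.7%, and that of Atic the highest, 69.7%, with a median of 52.7% over all promoters. The start used for Mthfd1l lies inside the span of its deposited row. These matches describe the letters in these windows only.

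The table holds transcript abundances scaled to a fixed library total (TPM), a unit which accounts for transcript length and so allows levels of different genes to be compared. In the controls of either line, Shmt2 and Atic had the highest mean TPM of the 5 genes and Aldh1l2 the lowest mean. In the exon 2-3 controls, the mean TPM was 71.4 for Shmt2, 63.9 for Atic, 32.6 for Shmt1, 20.8 for Mthfd1l and 17.7 for Aldh1l2. Shmt2 and Atic overlapped in that group, as they did in the exon 2 controls at 71.4 and 74.7, and Mthfd1l (24.5) overlapped Aldh1l2 (24.2) there. The mean TPM of Shmt2 in exon 2-3 controls was above that of 86.4% of the 2620 genes, and that of Aldh1l2 above 55.0%. TPM keeps no record of sequencing depth, so no counting interval is attached to these values.

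**Figure D1:**
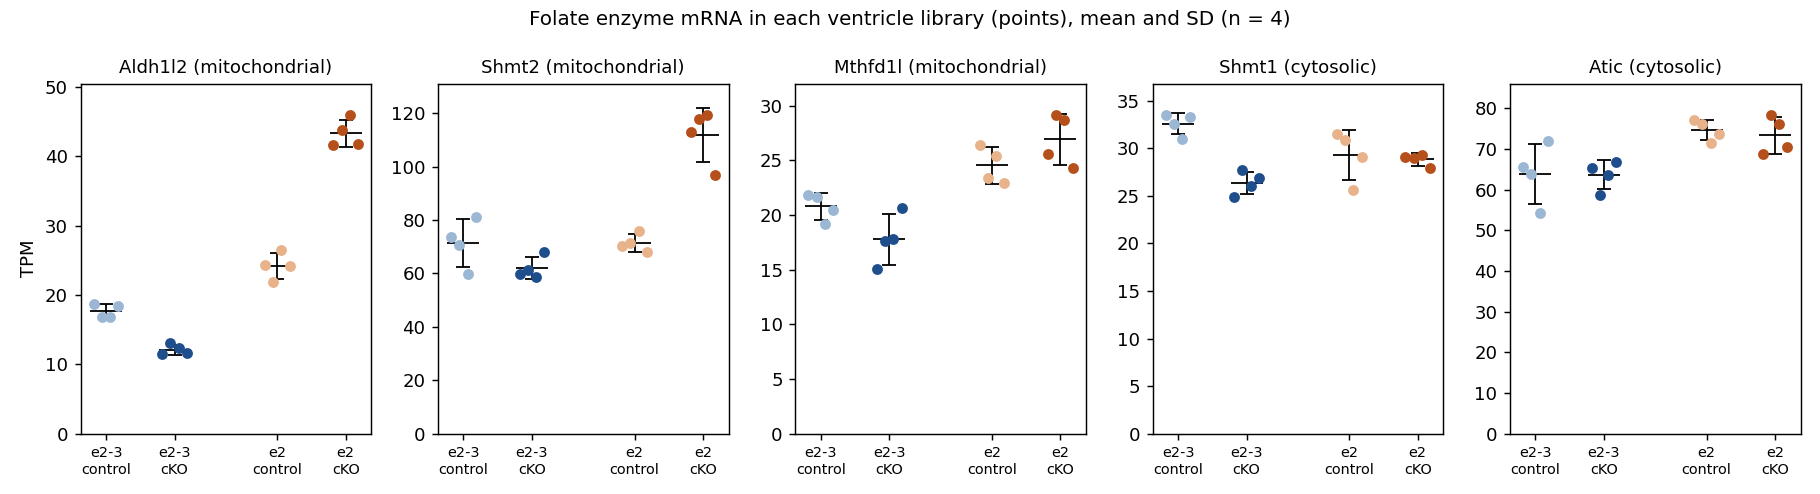
TPM (y axis, from 0) of each enzyme gene in the 16 ventricle libraries, by group (x axis; e2-3 and e2 are the exon 2-3 and exon 2 lines). Points are libraries and bars the mean and SD of 4. Aldh1l2 and Shmt2 in the exon 2 cKO stand above all their controls, and Aldh1l2 and Shmt1 in the exon 2-3 cKO stand below theirs.

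In the exon 2 line, transcripts of Aldh1l2 and Shmt2 were higher in every cKO library than in any control, and those of Shmt1 and Atic were at the level of the controls. The TPM of Aldh1l2 was 24.3, 21.8, 26.5 and 24.1 in the controls and 41.6, 43.8, 45.8 and 41.8 in the cKO. The cKO mean of 43.3 ± 1.98 TPM was 1.79 times the control mean of 24.2 ± 1.89 TPM (SD, n = 4 each), a log2 fold change of 0.82 (SE 0.068) on the log2(TPM + 1) scale. By mean TPM, Aldh1l2 was thus beside Mthfd1l (24.5, overlapping) at the low end of the 5 in those controls. In the cKO it was the third most abundant, above Shmt1 and Mthfd1l.

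Shmt2 had 70.4, 71.3, 75.8 and 68.0 TPM in the exon 2 controls and 113, 118, 119 and 97.0 TPM in the cKO. No library of one group reached the range of the other. The means were 71.4 ± 3.27 and 112 ± 10.1 TPM (SD, n = 4 each), with a log2 fold change of 0.64 (SE 0.071). Of the 2620 genes, Aldh1l2 had the 7th and Shmt2 the 10th highest log2 fold change in this line. All cKO libraries lay above all controls for 18 genes, or 0.687% of those tested, these included.

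Mthfd1l, the third mitochondrial gene, differed less. Its TPM was 26.4, 23.4, 25.4 and 22.9 in the exon 2 controls and 25.6, 29.1, 28.7 and 24.3 in the cKO, so the groups overlapped, with cKO replicates 2 and 3 above all controls. The log2 fold change was 0.13 (SE 0.077). The mitochondrial genes therefore did not move by a common factor: the ratio of Aldh1l2 to Mthfd1l TPM was between 0.919 and 1.05 in the controls and between 1.51 and 1.72 in the cKO. The ratio of Aldh1l2 to Shmt2 was nearer in the groups, between 0.306 and 0.355 in the controls and between 0.369 and 0.431 in the cKO.

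The cytosolic genes gave log2 fold changes near 0 in the exon 2 line. Shmt1 had 31.5, 30.9, 25.6 and 29.1 TPM in the controls and 29.1, 29.0, 29.3 and 27.9 in the cKO, within the range of the controls, a log2 fold change of -0.018 (SE 0.070). Atic had 77.3, 76.2, 71.6 and 73.7 TPM in the controls and 68.7, 78.3, 76.2 and 70.4 in the cKO, with a log2 fold change of -0.026 (SE 0.057). Each library's ratio of Shmt2 to Shmt1, the mitochondrial and cytosolic forms of the same enzyme, does not depend on a common scaling of the library. It was 2.23, 2.31, 2.96 and 2.34 in the controls and 3.88, 4.06, 4.06 and 3.48 in the cKO, with means of 2.46 ± 0.336 and 3.87 ± 0.273 (SD, n = 4 each). Control replicate 3 had the highest ratio of its group and also the lowest Shmt1. All 4 cKO libraries lay above it.

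**Figure D2:**
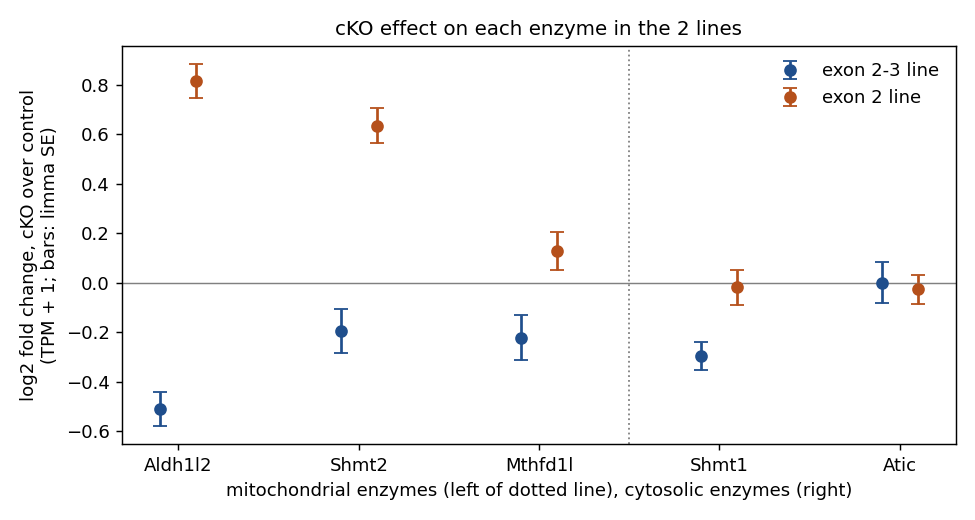
Log2 fold change of cKO over control (y axis, log2(TPM + 1) scale) for each enzyme gene (x axis) in the exon 2-3 and exon 2 lines. Points are limma estimates from 4 against 4 libraries and bars their SE. In the exon 2 line the values go from 0.82 for Aldh1l2 to -0.026 for Atic, and in the exon 2-3 line from -0.51 for Aldh1l2 to 0.00045 for Atic.

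In the exon 2-3 line the direction was the opposite for the mitochondrial genes, and the cytosolic Shmt1 was lower as well. Aldh1l2 had 18.679, 16.829, 16.824 and 18.378 TPM in the controls and 11.503, 13.036, 12.289 and 11.646 TPM in the cKO, with no overlap. The means were 17.7 ± 0.990 and 12.1 ± 0.701 TPM (SD, n = 4 each), a log2 fold change of -0.51 (SE 0.069), and 27 of the 2620 genes had a lower one. Shmt1 had 33.4, 32.5, 31.0 and 33.3 TPM in the controls and 24.91, 27.69, 26.00 and 26.84 TPM in the cKO, again with no overlap. Its means were 32.6 ± 1.11 and 26.4 ± 1.19 TPM, a log2 fold change of -0.30 (SE 0.056). All cKO libraries lay below all controls for 139 genes, or 5.31% of those tested, these 2 included.

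Shmt2 and Mthfd1l were lower on average in the exon 2-3 cKO, with overlap between the groups. Shmt2 had 73.6, 70.8, 59.8 and 81.2 TPM in the controls and 59.8, 61.3, 58.7 and 67.9 TPM in the cKO. The log2 fold change was -0.20 (SE 0.089), and control replicate 3 alone reached the range of the cKO. Mthfd1l had 21.8, 21.7, 19.2 and 20.5 TPM in the controls and 15.04, 17.60, 17.76 and 20.65 TPM in the cKO. Its log2 fold change was -0.22 (SE 0.091), and cKO replicate 4 alone lay within the range of the controls. Atic had 65.6, 63.9, 54.2 and 72.0 TPM in the controls and 65.5, 58.7, 63.6 and 66.9 TPM in the cKO, a log2 fold change of 0.00045 (SE 0.083).

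Control replicate 3 of the exon 2-3 line held the lowest value of its group for all 5 genes. Its median log2(TPM + 1) over the genes tested was 3.83, against 3.98 to 4.03 in the other 3 controls. Without that library the log2 fold change was -0.28 for Shmt2 and -0.075 for Atic. Without control replicate 4, which held the highest value of its group for both, it was -0.13 for Shmt2 and 0.059 for Atic. After each library was centred on its own median, all exon 2-3 cKO libraries lay below all controls for Aldh1l2, Shmt2, Mthfd1l and Shmt1, and the groups overlapped for Atic. The same held for 310 of the 2620 genes (11.8%) in the downward direction. For Mthfd1l the gap was narrow, from 0.373 in cKO replicate 4 to 0.396 in control replicate 4 (log2 units above the library median). Centred in this way, the log2 fold changes were -0.56 for Aldh1l2, -0.34 for Shmt1, -0.27 for Mthfd1l, -0.24 for Shmt2 and -0.048 for Atic. In the exon 2 line, Aldh1l2 and Shmt2 kept all cKO libraries above all controls after centring, as did 0.992% of all genes, and the other 3 overlapped.

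The split between mitochondrial and cytosolic enzymes was therefore not alike in the lines. The mean log2(TPM + 1) of the 3 mitochondrial genes minus that of the 2 cytosolic genes was -0.413 ± 0.144 in the exon 2 controls and 0.136 ± 0.0536 in the cKO (SD, n = 4 each), a shift of 0.55 with no overlap. In the exon 2-3 line it was -0.596 ± 0.0224 in the controls and -0.757 ± 0.0669 in the cKO, a shift of -0.16, also with no overlap. Within that shift, log2 fold changes were -0.51 for Aldh1l2, -0.22 for Mthfd1l and -0.20 for Shmt2, against -0.30 for Shmt1 and 0.00045 for Atic. The cytosolic Shmt1 thus had a lower value than the mitochondrial Shmt2 and Mthfd1l, and the shift did not separate the genes by compartment. The ratio of Shmt2 to Shmt1 did not separate the exon 2-3 groups. It was 2.202, 2.176, 1.928 and 2.439 in the controls and 2.403, 2.213, 2.256 and 2.529 in the cKO, since both genes were lower together. The ratio of Shmt1 to Atic in that line was between 0.463 and 0.573 in the controls and between 0.381 and 0.472 in the cKO. Summed over the 3 mitochondrial genes, TPM averaged 110 in controls and 91.8 in cKO of the exon 2-3 line, and 120 and 182 in the exon 2 line. These sums overlapped in the exon 2-3 line, at 95.8 to 120 TPM in controls and 86.4 to 100 TPM in cKO. In the exon 2 line they did not. Sums over the 2 cytosolic genes averaged 96.5 and 90.0 TPM in the exon 2-3 line and 104 and 102 TPM in the exon 2 line. The cytosolic sums overlapped in both lines.

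**Figure D3:**
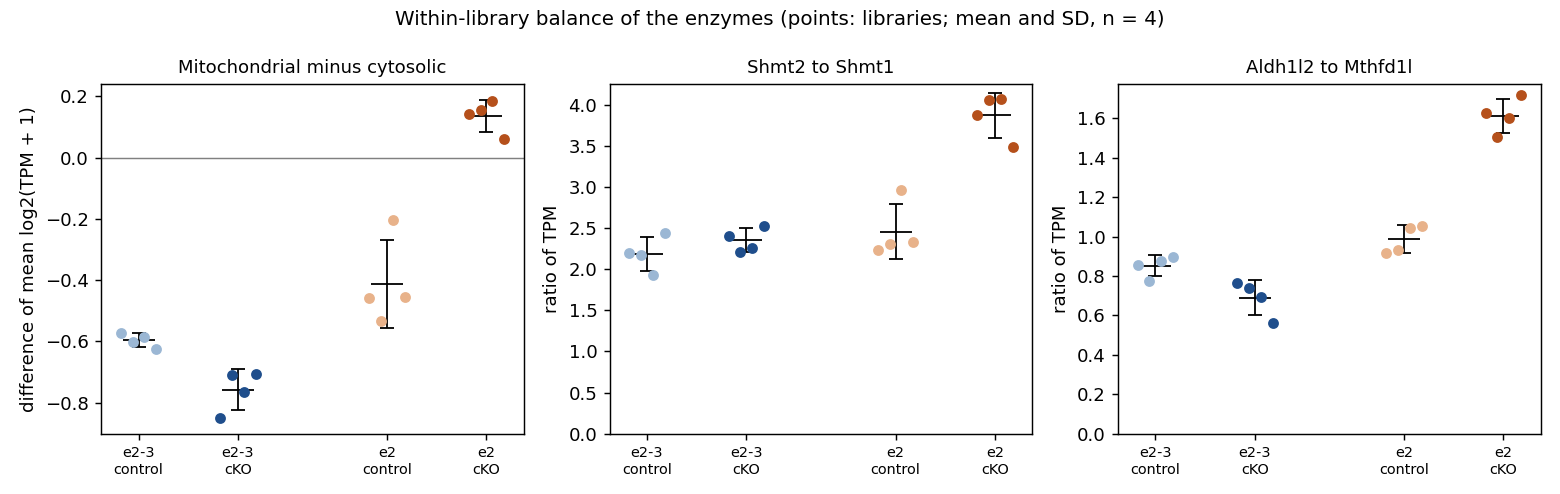
Balance of the enzymes within each library, by group: mean log2(TPM + 1) of the mitochondrial minus the cytosolic genes (left), the ratio of Shmt2 to Shmt1 TPM (middle) and the ratio of Aldh1l2 to Mthfd1l TPM (right). Points are libraries, bars the mean and SD of 4. The exon 2 cKO stands above its controls in each panel, and the exon 2-3 groups overlap in the ratio of Shmt2 to Shmt1.

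The difference between the lines' cKO effects, exon 2-3 minus exon 2 on the log2 scale, was -1.33 (SE 0.092) for Aldh1l2, -0.83 (SE 0.12) for Shmt2, -0.35 (SE 0.12) for Mthfd1l, -0.28 (SE 0.086) for Shmt1 and 0.027 (SE 0.10) for Atic. Aldh1l2 was the one enzyme gene of the 5 whose groups did not overlap in either line, in opposite directions. Its 4 exon 2-3 cKO libraries, at 11.503 to 13.036 TPM, had less than the lowest of the other 12 libraries. Its 4 exon 2 cKO libraries, at 41.6 to 45.8 TPM, had more than the highest. Of all genes, 5.31% had every cKO library below every control in the exon 2-3 line, and 0.687% above in the exon 2 line. The share of genes with both was not counted.

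These are bulk samples, in which fewer cells of a type and less RNA per cell cannot be told apart. Cardiomyocyte markers such as the troponin gene Tnnt2 and the myosin light chain gene Myl4 were abundant, and the summed TPM of the 7 such markers held was 17044 to 18505 in exon 2-3 controls, 16528 to 17518 in the cKO, 12567 to 14648 in exon 2 controls and 12926 to 14025 in the cKO. Most of that sum comes from Myl4, Tnnt2, Myl7 and Tnni1. Of the 7, limma called 1 lower in the exon 2-3 cKO, Hand1, where 2.56% of all genes were called lower, and none in the exon 2 cKO. Tnni1, at 2770 to 3250 TPM in exon 2-3 controls and 1560 to 2740 TPM in the cKO, did not overlap and was not called, with a log2 fold change of -0.386 (SE 0.164), and Myocd had -0.317 (SE 0.0971), also not called. The 3 neuronal markers held summed to at most 2.99 TPM in any library. The 3 endothelial markers held had log2 fold changes from 0.141 to 0.208 in the exon 2-3 line and from -0.307 to -0.0687 in the exon 2 line. Those of the 3 myeloid markers tested went from -0.191 to 0.392 and from -0.446 to 0.0864. None of either list was called in a line. The myeloid marker Lyz2 had 77.4 to 82.8 TPM in exon 2-3 controls and 66.0 to 77.1 TPM in the cKO, without overlap, as for 5.31% of all genes in that direction. The 5 markers of epicardial cells and fibroblasts held (Tcf21, Col1a1, Col3a1, Dcn and Lum) moved with the exon 2-3 cKO. They summed to between 256 and 291 TPM in the controls and between 395 and 432 TPM in the cKO, and 4 of the 5 were called higher in the cKO by limma, all but Lum, where 4.16% of all genes were called higher. With no filter on low values, Col3a1 was not called (limma adjusted p 0.0572). In the exon 2 line the sums overlapped, at 385 to 548 TPM in controls and 377 to 485 TPM in cKO, and none of the 5 was called. Their part in the lower values of Aldh1l2, Shmt2, Mthfd1l and Shmt1 in the exon 2-3 line was not tested. Erythroid markers varied widely within groups, from 1512 to 11293 TPM in the exon 2-3 cKO, where Shmt2, Mthfd1l and Atic were highest in the library with the most of them, cKO replicate 4. With each library rescaled without hemoglobin genes the log2 fold changes there were -0.52 for Aldh1l2, -0.20 for Shmt2, -0.23 for Mthfd1l, -0.30 for Shmt1 and -0.0063 for Atic. This rescaling gave equal totals to the rows used, after leaving out the 5 of 10 listed hemoglobin genes held. It therefore does not remove all hemoglobin from a library.

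The control groups give a comparison that was not itself used to choose the genes, in which line again goes with batch. The same control libraries did enter the contrasts that were used. The limma adjusted p-values of the enzyme genes below are therefore not independent of that choice. Over all genes the median difference of exon 2-3 minus exon 2 controls was -0.14 on the log2 scale. Limma called 1377 of 2620 genes (52.6%), of which 27.5% were higher in the exon 2-3 controls, a share that was 57.7% after centring on the library median. As shares of all genes, 14.4% were called higher and 38.1% lower. Aldh1l2 was lower in the exon 2-3 controls, at 16.8 to 18.7 TPM against 21.8 to 26.5 TPM, a log2 difference of -0.43 (SE 0.065, limma adjusted p 5.79e-05). It kept this call under every alternative tried, with -0.25 after centring (limma adjusted p 0.00122). Shmt2 had nearly the same mean in both, with a difference of -0.0071 (SE 0.084, limma adjusted p 0.95) that was 0.17 after centring (limma adjusted p 0.0237).

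The other 3 genes gave control differences that depended on the scaling or the libraries. Mthfd1l was lower in the exon 2-3 controls by a log2 difference of -0.23 (SE 0.086, limma adjusted p 0.035), which was -0.047 after centring and no longer called. Atic gave -0.23 (SE 0.073, limma adjusted p 0.015) and -0.048 after centring (limma adjusted p 0.489). Shmt1 was higher in the exon 2-3 controls by 0.15 (SE 0.061, limma adjusted p 0.0467), and by 0.33 after centring. When single libraries were left out, 12 of 16 fits no longer called it. So 4 of the 5 enzyme genes were called in this comparison, where 52.6% of all genes were.

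Around these enzymes, lists of folate, serine, nucleotide, methionine and tricarboxylic acid cycle genes, 104 in all, had 17 members in the rows used, all of them tested. None of the 10 listed genes of mitochondrial folate and glycine cleavage beyond the 3 above was among them. Limma called 0 of the 17 in the exon 2-3 cKO, where 6.72% of all genes were called. It called 0 in the exon 2 cKO, where 0.0763% were, and 0 for the difference between the lines, where 2.37% were. At an unadjusted p under 0.05 the counts were 3, 1 and 1, against 21.1%, 3.21% and 15% of all genes. The 1 for the difference between the lines, Slc1a4 (-0.438, limma adjusted p 0.118), was called after quantile normalisation (-0.494, limma adjusted p 0.00953) and after centring (-0.491, limma adjusted p 0.0111), and its adjusted p was at most 0.225 over the alternatives. The median log2 fold change of the 17 was -0.014 in the exon 2-3 line and -0.039 in the exon 2 line, against 0.032 and -0.012 over all genes.

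The cytosolic purine genes beside Atic gave small values. Pfas, which encodes an earlier enzyme of purine synthesis, had a log2 fold change of 0.016 (SE 0.062) in the exon 2-3 line and 0.13 in the exon 2 line, and Adss, of adenylate synthesis, had 0.10 and -0.0059. Ftcd, which encodes an enzyme that passes one-carbon units from histidine breakdown to folate, averaged 4.82 ± 0.483 TPM in exon 2-3 controls and 3.57 ± 0.301 TPM in the cKO (SD, n = 4 each). The groups did not overlap, and the log2 fold change of -0.35 (SE 0.096) missed the threshold (limma adjusted p 0.0642; between 0.0132 and 0.166 over the alternatives). Slc1a4, a transporter of serine and other small neutral amino acids, had 6.09 to 7.45 TPM in the exon 2 controls and 8.19 to 9.32 TPM in the cKO. Those groups did not overlap either, and the log2 fold change of 0.33 (SE 0.088) was not called (limma adjusted p 0.703).

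For comparison, the 4 tricarboxylic acid cycle genes tested, of 22 listed, were set beside the folate enzymes. With the rest of the list outside the rows used, they do not stand for mitochondrial enzymes in general. Sdhc, Fh1, Cs and Ogdh had log2 fold changes of -0.15, -0.14, -0.10 and 0.013 in the exon 2-3 line and of -0.080, -0.039, -0.029 and -0.055 in the exon 2 line. None was called, with limma adjusted p-values from 0.0679 upward in the first line, where Sdhc and Fh1 passed the threshold after centring on the library median. Without centring, these groups did not overlap in that line, as for 5.31% of all genes in the downward direction. Sdhc had 306 to 323 TPM in the controls and 277 to 294 in the cKO, and Fh1 had 232 to 258 and 215 to 230. Cs and Ogdh overlapped. The higher values of Aldh1l2 and Shmt2 in the exon 2 cKO had no counterpart in these 4 genes.

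**Figure D4:**
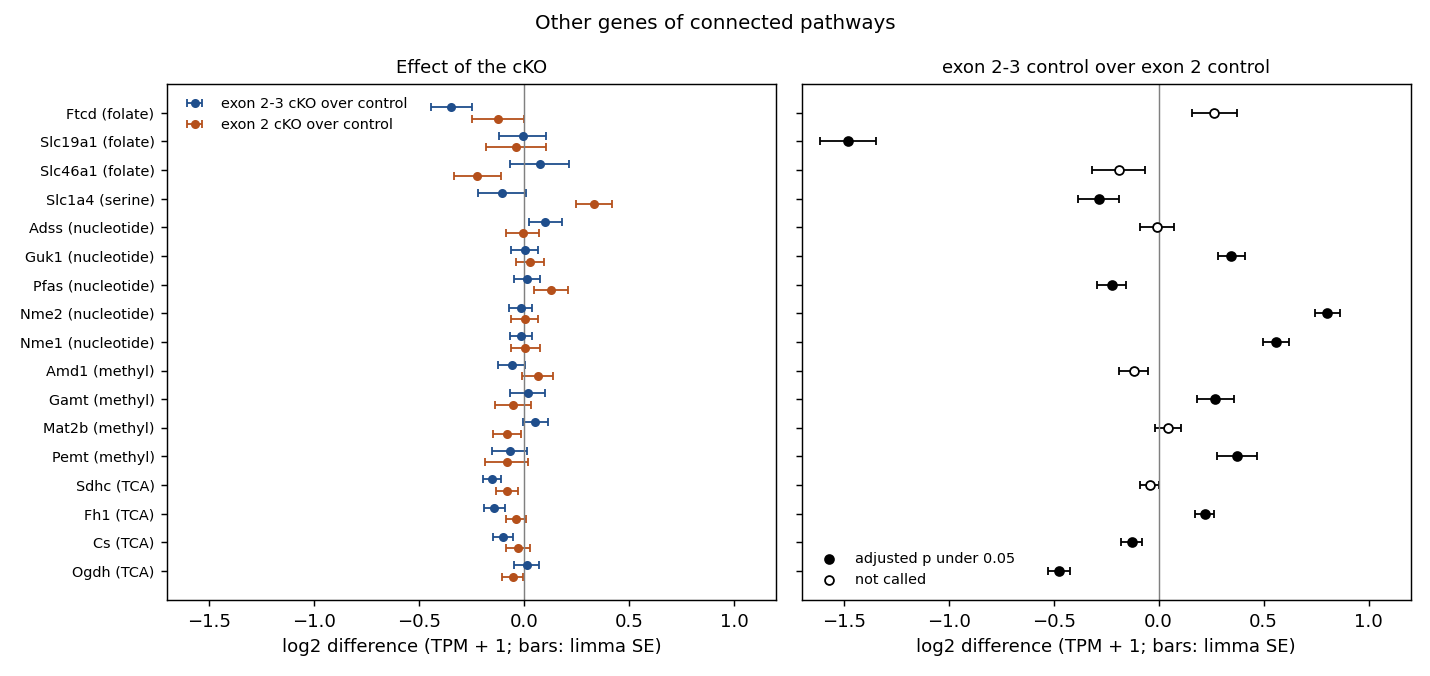
Log2 differences (x axis, log2(TPM + 1) scale, bars limma SE) of the 17 other pathway genes tested (y axis, with the list of each in parentheses). Left, cKO over control in the exon 2-3 and exon 2 lines; right, exon 2-3 over exon 2 controls, filled where the adjusted p was under 0.05. No gene was called on the left and 11 were called on the right, with Slc19a1 the lowest at -1.48.

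Between the control groups, 11 of the 17 were called, 6 higher and 5 lower in the exon 2-3 controls, where 52.6% of all genes were called, so the count is near the background. The largest difference belonged to Slc19a1, the reduced folate carrier that brings folate into cells. It had 1.48 to 2.33 TPM in exon 2-3 controls and 6.45 to 7.76 TPM in exon 2 controls, a log2 difference of -1.48 (SE 0.13, limma adjusted p 2.05e-07), and it kept its call under each alternative that tested it. Slc19a1 did not follow the knockouts, with 1.70 to 2.03 TPM in the exon 2-3 cKO and 5.58 to 9.75 TPM in the exon 2 cKO. The nucleoside diphosphate kinase genes Nme1 and Nme2 were higher in the exon 2-3 controls by 0.56 and 0.80, and as neighbouring near-copies their reads are uncertain. Guk1, Gamt, Pemt and Fh1 were also higher, by 0.22 to 0.37, and Ogdh, Slc1a4, Pfas and Cs were lower, with differences from -0.475 to -0.129. After centring on the library median Ogdh was still called, and Slc1a4 (-0.105), Pfas (-0.043) and Cs (0.052) were not. Cs also lost its call in 11 of 16 fits that left out a library.

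To show which genes varied most like the mitochondrial enzymes, each gene's log2 values were taken relative to the mean of its line's controls. The profiles over the 16 libraries, which include the contrasts that chose the members, were then compared by their root mean square difference. The gene nearest to Aldh1l2 was Shmt2 (0.208, against a median of 0.518 over 2619 genes), then 2900009J06Rik (0.247) and Stc2 (0.255). At low mean TPM of 1.64 to 3.76, 2900009J06Rik had log2 fold changes of -0.709 (SE 0.168) in the exon 2-3 line and 0.67 (SE 0.165) in the exon 2 line. Nearest to Shmt2 were Stc2, a secreted glycoprotein gene (0.108), Casq1, a calcium-binding protein of the sarcoplasmic reticulum (0.156), and Slc1a4 (0.176), with Aldh1l2 at rank 5. Stc2 averaged 5.93 and 5.50 TPM in control and cKO of the exon 2-3 line and 6.65 and 10.9 TPM in the exon 2 line. Mthfd1l had log2 fold changes of -0.22 in the exon 2-3 line and 0.13 in the exon 2 line. It was nearest to Dtl (0.0805), Slc25a39 (0.0820) and Nedd1 (0.0908). Shmt2 was 1868th in order of nearness to Mthfd1l. In the other direction, Mthfd1l was 16th in nearness to Shmt2 (0.271, against a median of 0.377) and 18th to Aldh1l2 (0.387). The measure also reflects the size of the changes, so ranks depend on the gene started from.

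Overlapping genes held little of the signal. Gm51778, on the other strand from Aldh1l2, averaged 0.173% of its TPM. The 3 rows overlapping Mthfd1l averaged at most 0.568% of its TPM. Ndufa4l2 overlaps Shmt2 by 32 bases on the other strand, averaged 8.81% of its TPM, and had a log2 fold change of -0.14 (SE 0.27) in the exon 2 line. Shmt1 and Atic overlapped no other row. Among the pathway genes and nearest profiles named, Sdhc, Cs, Ogdh, Pemt, Pfas, Slc46a1, Adss, 2900009J06Rik, Casq1, Dtl, Nedd1 and Slc25a39 overlap a further row. Their values are less certain for that reason, and the cell type markers were not checked for overlap. Whether counting used the strand is not given in the sources used here.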

How the data were processed

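Ventricular RNA-seq values of 16 libraries were read from 1 deposited table of TPM, made by the authors; the role of each tool is not given in the sources used here. The submitters' processing notes name FastQC, Trim Galore 0.6.7, HISAT2 2.2.1, StringTie 2.2.1, featureCounts and DESeq2, and the build GRCm38. The labels name both stranded mRNA and ribosomal depletion libraries, and the extraction text names cortical neurons. The table was held in part (chromosome 1, chromosome 10 and part of 11; 15.2% to 17.1% of each library's TPM), so genes elsewhere were not analysed here.

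Groups came from sample titles. The scale of analysis was log2(TPM + 1), on which changes of low genes are understated. It was applied to the 2620 genes with a mean of at least 1 TPM. Limma 3.58.1 (R 4.3.3, intensity trend) was fitted to each line's 8 libraries, and to all 16 for the control and between-line differences, with two-sided tests, Benjamini-Hochberg adjustment over all genes and a threshold of 0.05. The procedure was tested on simulated data with independent normal errors. Those data held no shift shared by the genes of a library, so the test does not cover such shifts. Within groups, libraries correlated across genes with r from 0.982 to 0.992, and p-values measure the spread between these embryos. Members and lists were chosen with earlier results of these data known. The text names the 5 enzymes, tested genes of the pathway lists, the 3 nearest profiles to each mitochondrial enzyme, overlapping rows and markers. The alternatives were a pseudocount of 0.1, no filter, a minimum mean TPM of 5, quantile normalisation, median centring, rescaling without hemoglobin, one fit over all libraries, the replicate number as a block, and each library left out. Python 3.11.15, pandas 2.3.3 and matplotlib 3.10.9 were used.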

Additional observations from a re-analysis of the deposited data

Results flagged for a closer look

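The effect of the cKO on Aldh1l2 had opposite directions in the lines, with no overlap in either. The difference was -1.33 on the log2 scale (exon 2-3 minus exon 2). It was not tested, because the gene was chosen on these contrasts. The same difference was -0.737 for Stc2 and -0.498 for Casq1. Both were named for profiles like that of Shmt2, which hold these contrasts, so their values are a description with no test. Also with opposite signs was 2900009J06Rik, named for a profile like that of Aldh1l2, at -0.709 (exon 2-3 line) and 0.67 (exon 2 line). Of all genes, 5.31% lay wholly below their controls in the exon 2-3 line and 0.687% wholly above in the exon 2 line. The share of genes with both was not counted, so the opposite directions have no background share beside them. Among markers, where 2.37% of all genes were called, the interaction term of limma was called for Tcf21 (0.68) and Dcn (0.635), each more positive in the exon 2-3 line, and both kept the call under all 23 alternatives. It was called for Hand1 (-0.523, limma adjusted p 0.0481), which lost the call in 12 of 16 fits that left out a library, with no filter (limma adjusted p 0.136) and with a replicate block. Over all alternatives its adjusted p lay between 0.0123 and 0.136.

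The ratio of Shmt2 to Shmt1 in the exon 2 controls had 1 library, replicate 3, far from the other 3, with a gap of 0.855 of the group's range. Ftcd in the exon 2-3 controls had 1 library apart, with a gap of 0.937 of the range. Chance sets apart about 1 in 20 groups of 4 in this way.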

How the results depend on the processing

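The log2 fold change of each enzyme gene in each line, and the mitochondrial minus cytosolic difference, moved by less than the spread between replicates under all 16 alternatives. Much of this was fixed in advance, because leaving out a single library cannot move these values by as much as that spread. The changes of filter, the single fit and the replicate block left the estimates as they were. Centring cannot change the mitochondrial minus cytosolic difference. With single libraries left out, that difference ranged from -0.178 to -0.131 in the exon 2-3 line and from 0.509 to 0.619 in the exon 2 line. The log2 ratio of Shmt2 to Shmt1, left out likewise in a check chosen after seeing the data, ranged from 0.0484 to 0.162 and from 0.618 to 0.754. Among the control differences, that of Shmt2 (-0.0071) turned to 0.060 after quantile normalisation, 0.17 after centring, 0.035 without hemoglobin, 0.074 without exon 2-3 control replicate 3 and 0.022 without exon 2 control replicate 3, in a leave-one-out range of -0.071 to 0.074; that of Cs turned to 0.052 after centring. The cause was not tested.

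Counts of called genes moved more. For the exon 2-3 cKO, 176 genes became 87 with no filter, 309 after quantile normalisation, 343 after centring and 269 without hemoglobin, and ranged from 70 (without cKO replicate 3) to 190 (without control replicate 3). Of the calls, 61.9% were higher, against 50.5% after quantile normalisation and 41.4% after centring. For the exon 2 cKO, 2 became 4 with one fit over all libraries, and 2 to 4 with single libraries left out (4 without control replicate 3). For the difference between lines, 62 became 41 with no filter, 133 after quantile normalisation and 127 after centring, and ranged from 36 (without exon 2 cKO replicate 2) to 84 (without exon 2-3 control replicate 4), with 67.7% higher against 53.4% and 52.0% under those scalings. The 1377 control calls ranged from 1190 to 1401 with single libraries left out and from 1136 (minimum mean TPM 5) to 1408 (no filter) otherwise, with 27.5% higher against 39.7% after quantile normalisation.

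Samples of the same number did not all deviate together (r from -0.0287 to 0.211 in the exon 2-3 line and from 0.0639 to 0.200 in the exon 2 line), which does not meet the rule for treating numbers as pairs, every correlation over 0.1. In the exon 2 line all 4 were positive, and 3 of 4 controls correlated best with the cKO of their own number, as did 1 of 4 in the exon 2-3 line, a hint from the data and not from the design. With a replicate block the counts were 149 for the exon 2-3 cKO, 2 for the exon 2 cKO, 36 for the difference between lines and 1305 for the controls. TPM gives no depth, which leaves the counting error of low genes such as Slc19a1 unknown.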
